A study of Mus musculus with 1824 samples.

Results

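Spi1 and 9 further genes of myeloid cells and leukocytes (Tyrobp, Fcer1g, Csf1r, Cx3cr1, Ptprc, Coro1a, Vav1, Laptm5 and Lyz2) were followed through single cells of early mouse chimaeric embryos, as 10 of the 55487 genes in the count table. They were taken by name, each gene symbol matched exactly 1 row, and all 10 were measured. In these embryos all of the 9 further genes but Lyz2 had most of their reads in 120 cells, which were chosen by Spi1 and lay mainly on 2 plates. The genes were seen unequally within those cells: Laptm5, Coro1a and Fcer1g were seen in most of them, Tyrobp and Csf1r in fewer, and Ptprc and Cx3cr1 in few. Fcer1g, Coro1a, Laptm5, Vav1 and Lyz2 were also found in cells without Spi1, and Tyrobp, Csf1r and Ptprc in fewer such cells.

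Spi1 encodes PU.1, an ETS-family transcription factor that binds purine-rich sites with a GGAA core and is required for myeloid and B cell development. The first macrophages of the mouse arise in the yolk sac from haemogenic endothelium at about the time of the first erythroid cells and megakaryocytes. PU.1 and GATA1, the factor of the erythroid and megakaryocytic lineages, are known to restrain each other. Among the remaining members are adapter proteins of activating receptors, a cytokine receptor, a chemokine receptor, a phosphatase of the leukocyte surface, proteins of the actin cytoskeleton and of signalling in blood cells, a lysosomal membrane protein and a secreted enzyme.

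RNA was measured with Smart-seq2, which sequences whole transcripts and adds no molecular tags, in 1824 wells with 1 sorted cell each on 19 plates. The embryos were chimaeras of embryonic day (E) 7.5 (11 plates) and E8.5 (8 plates), made by injecting Tet triple-knockout (Tet-TKO, lacking Tet1, Tet2 and Tet3) embryonic stem cells with a tdTomato marker into C57BL/6J host blastocysts, and the labels give the strain as CD1. The labels do not give genotype or sort gate per cell, and the methods describe sorting with antibodies to KDR and CD41, so that knockout and host cells were not compared, and a share of cells is a share of what was sorted. The methods say that some of the cells were treated with a GpC methylase for DNA assays while others had their RNA sequenced alone, and mention pooling of chimaeric embryos for another assay, so that the number of embryos behind a plate is not known for 15 of the 19 plates. Only 4 E7.5 plates carry an embryo number, so each stage counted as 1 sample, no groups were tested against each other, and intervals cover counting error only.

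A cell was kept with at least 100000 reads. This left 1649 cells. E7.5 gave 57.98% of them, with a median of 735486 reads, and E8.5 gave 42.03%, with a median of 569386 reads. No 2 of the 1649 cells held identical counts. Values are CPM, the usual scaling of read counts to the total of gene reads of the cell, or of the summed cells of a group. A gene was called positive in a cell at 10 CPM or more. Cells were put in 1 group each, in this order: Spi1-positive, globin-high (10 haemoglobin genes at 10000 CPM or more in sum), Pf4-positive (platelet factor 4, of megakaryocytes), Kdr-positive (the VEGF receptor of endothelium and early mesoderm) and Epcam-positive (an epithelial adhesion gene). Of the kept cells 7.28% (120) were Spi1-positive, 12.55% globin-high, 2.91% (48) Pf4-positive, 37.54% Kdr-positive and 29.53% Epcam-positive, and 10.19% were in none.

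Promoter sequences bear on genes that come on together with a transcription factor. RefSeq (GRCm38.p6) windows of 250 bases upstream of a RefSeq transcript start were at hand for 7 of the 10 genes (Ptprc, Fcer1g, Laptm5, Coro1a, Cx3cr1, Lyz2 and Vav1). The letters GAGGAA, the core of a purine-rich PU.1 box, were searched on both strands. They stood in the windows of 3 of these 7 genes, and in 25.9% of all 27025 genes with a window. The windows that held them belonged to Ptprc (chr1:138175306-138175555, minus strand), Laptm5 (chr4:130913066-130913315, plus strand) and Vav1 (chr17:57278850-57279099, plus strand). Those of Ptprc and Vav1 are printed 5′ to 3′ on the strand of the gene, with the box in capitals.
Ptprc: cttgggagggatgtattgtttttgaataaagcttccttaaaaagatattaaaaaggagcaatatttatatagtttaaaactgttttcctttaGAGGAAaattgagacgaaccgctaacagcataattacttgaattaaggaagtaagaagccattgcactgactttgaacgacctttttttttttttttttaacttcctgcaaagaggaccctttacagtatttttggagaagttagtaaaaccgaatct
Vav1: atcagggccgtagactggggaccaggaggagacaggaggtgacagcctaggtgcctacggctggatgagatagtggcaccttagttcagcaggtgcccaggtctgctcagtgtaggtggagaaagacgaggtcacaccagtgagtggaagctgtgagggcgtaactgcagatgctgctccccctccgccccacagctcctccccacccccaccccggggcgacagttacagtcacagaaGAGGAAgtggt
Counted from the RefSeq transcript start at the end of each window, the box began at position -158 in Ptprc, -38 in Laptm5 and -11 in Vav1. The Vav1 window ended just before the gene as GENCODE annotates it, while the Ptprc window lay within the annotated gene and the Laptm5 window ran into it, with the box inside the gene. Ptprc and Coro1a each had a second start window in the same table, without the letters. A match describes these letters only.

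Spi1 (ENSMUSG00000002111, chromosome 2, 91082390 to 91115756, plus strand) was positive in 54 cells, 5.65% of those kept at E7.5 (exact 95% interval 4.27 to 7.31%), and in 66 cells, 9.52% of those kept at E8.5 (7.44 to 11.96%). These stage values came from few plates. E8.5 plate 5 held 52 of the 66 cells, 67.5% of its 77 kept cells. At E7.5, lane plate 1 held 37 positive cells of 93 (39.8%) and lane plate 2 held 11 of 89 (12.4%). E8.5 plates 3 and 6 held 6 each, of 83 and 92 cells, and the other 14 plates held 0 to 2 each. Without E8.5 plate 5 the E8.5 share was 2.27%, and without lane plate 1 the E7.5 share was 1.97%.

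**Figure D1:**
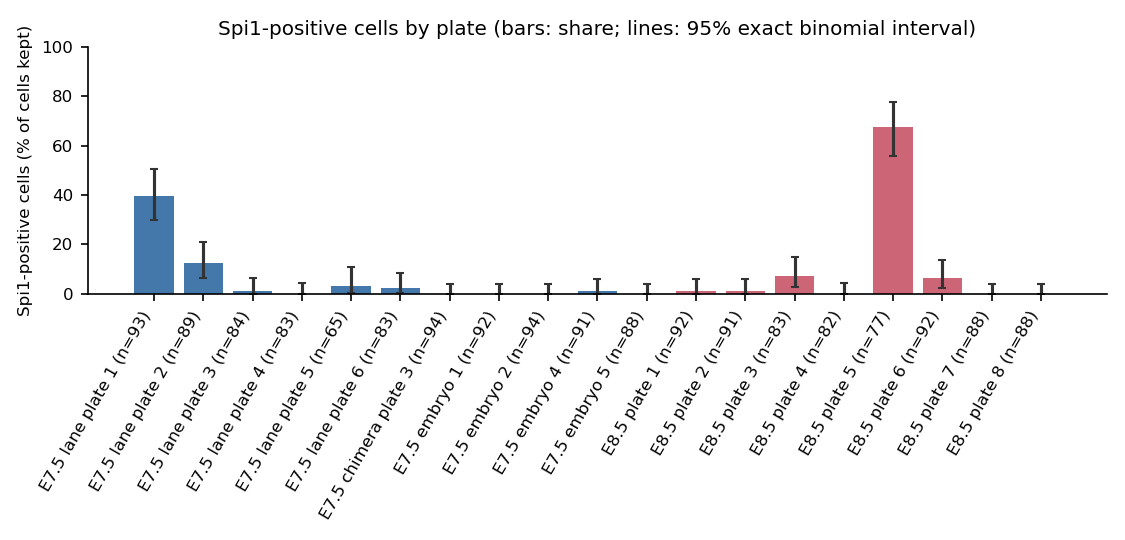
Share of kept cells with Spi1 at 10 CPM or more (vertical axis, percent) on each of the 19 plates (horizontal axis, number of kept cells in brackets). Blue bars are E7.5 and red bars E8.5, and lines are exact 95% binomial intervals. E8.5 plate 5 stood at 67.5% and E7.5 lane plate 1 at 39.8%, and no other plate was above 12.4%.

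The shares were also taken at equal depth. A Spi1 read was present in 7.95% of E7.5 and 10.97% of E8.5 cells. After each cell was thinned to 100000 reads the shares were 6.07% and 9.09%. In Epcam-positive cells without Kdr, Pf4 or haemoglobin, taken as a background that should lack the gene, 8 cells at E7.5 (1.98%) and 0 of 84 at E8.5 had a read, or 0.99% and 0% after thinning, at median depths of 627073 and 789908 reads. The 0 of 84 allows a share of up to 3.57%. Among the 120 positive cells Spi1 ran from 10.6 to 1618 CPM with a median of 97.8 CPM, and 60 of them were at 100 CPM or more.

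All 10 members were highest on these plates or on E8.5 plate 6. On E8.5 plate 5 the pooled levels were 206.9 CPM for Spi1, 63.6 for Tyrobp, 238.3 for Fcer1g, 62.1 for Csf1r, 46.9 for Ptprc, 426.3 for Coro1a, 73.3 for Vav1 and 347.6 CPM for Laptm5. On E7.5 lane plate 1 the same genes stood at 88.1, 38.1, 46.2, 27.6, 25.3, 87.5, 20.5 and 148.6 CPM. The 2 exceptions to this order were Cx3cr1, at 0.862 CPM on plate 5 and 10.2 CPM on lane plate 1, and Lyz2, at 70.7 CPM on plate 5, 16.8 CPM on lane plate 1 and 104.4 CPM on E8.5 plate 6. Spi1 was at 0 reads on 6 plates (E7.5 chimera plate 3, embryos 1 and 2, and E8.5 plates 4, 7 and 8).

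**Figure D2:**
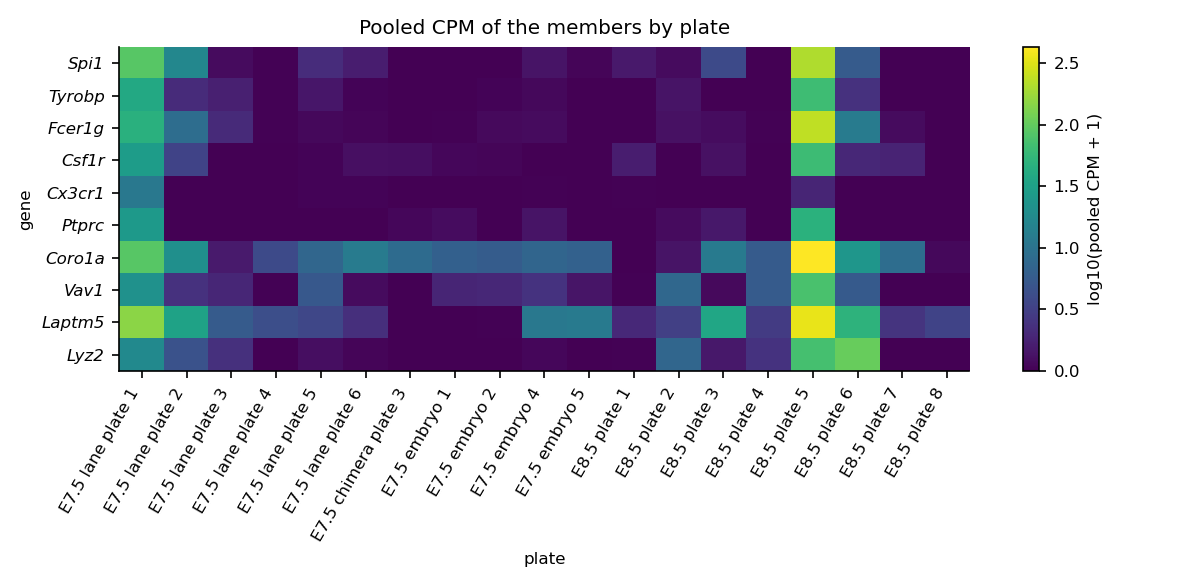
Pooled level of each member (rows) on each plate (columns) as log10(CPM + 1), with the colour scale at the right. E8.5 plate 5 was bright for all members except Cx3cr1 (0.862 CPM), E7.5 lane plate 1 for all 10, and E8.5 plate 6 was brightest for Lyz2 (104.4 CPM).

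The Spi1-positive cells were not a uniform set. The markers used in the sorts were present in most: Kdr was positive in 90.8% of the 120 cells and Itga2b, which encodes CD41, in 86.7%. Pf4 was positive in 57, haemoglobin passed the globin-high limit in 15, and 6 cells had both. The erythroid and megakaryocytic factor Gata1 was positive in 41. A further 54 cells had neither Pf4 nor high haemoglobin. At the level of the whole group the median cell had 677042 reads, against 531626 in Pf4-positive and 840005 in globin-high cells.

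Spi1-positive cells were then compared with Pf4-positive and with globin-high cells, which asked whether the myeloid genes followed Spi1 or were shared with the neighbouring blood lineages. Against Pf4-positive cells, 7 of the other 9 members were at least 2-fold higher, and Vav1 and Lyz2 were below that limit. Of all 9389 genes with 10 CPM or more in either group, 6.25% were at least 2-fold higher. The median log2 ratio was 3.48 over the 9 members and 0.03 over all genes compared. Of the 7, Tyrobp, Csf1r, Cx3cr1 and Ptprc passed the 10 CPM limit through Spi1-positive cells alone. Against globin-high cells all 9 were at least 2-fold higher, where 20.9% of 9143 genes were, with medians of 5.22 and 0.25, but all 9 passed the limit through Spi1-positive cells alone. These counts describe the members and are no support for a difference. Spi1 itself set the groups and was 205.7 CPM, 0.759 CPM and 0.0376 CPM in the 3 of them. The comparison has 1 sample per stage, and cells that share a plate share its library preparation.

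**Figure D3:**
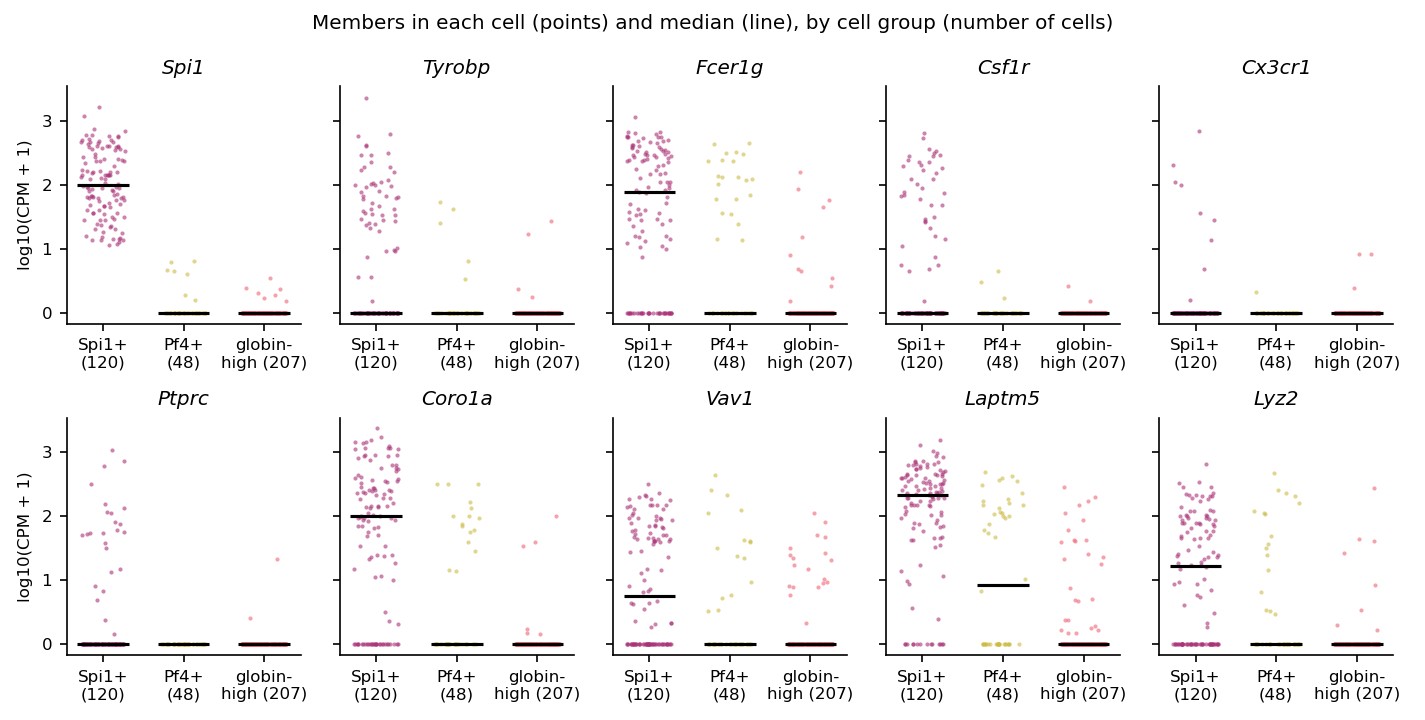
Level of each member, as log10(CPM + 1), in every Spi1-positive (120), Pf4-positive (48) and globin-high cell, with points jittered sideways and black lines at the median. Medians above 0 were seen in Spi1-positive cells for Spi1, Fcer1g, Coro1a, Vav1, Laptm5 and Lyz2, and in Pf4-positive cells for Laptm5 alone. Spi1 separates the groups because it was used to define them.

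The 2 adapters, which pair with activating receptors and carry the ITAM signalling motif, behaved differently. Tyrobp (DAP12, ENSMUSG00000030579, chromosome 7, 30413760 to 30417585, plus strand) was positive in 45 of 120 Spi1-positive cells (37.5%), with a highest value of 2267 CPM and a median of 0. Its pooled level was 71.4 CPM there, 2.77 CPM in Pf4-positive and 0.161 CPM in globin-high cells, which gave log2 ratios of 4.26 and 5.96. Fcer1g (the Fc receptor gamma chain, ENSMUSG00000058715, chromosome 1, 171229572 to 171234365, minus strand) was positive in 83 of 120 cells, with a median of 75.3 CPM. Its pooled level was 137.97 CPM, and it was 50.4 CPM in Pf4-positive cells, of which 22 of 48 were positive, so that the log2 ratio was 1.44. Fcer1g is also known from platelets, as the partner of the collagen receptor GPVI. In globin-high cells it was 2.72 CPM.

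The difference between the adapters was set mainly on E8.5 plate 5. All 17 Pf4-positive cells of that plate were positive for Fcer1g, from 33.9 to 447.04 CPM, and 49 of its 52 Spi1-positive cells were, with a highest value of 1123 CPM. The groups overlapped on that plate and the log2 ratio was 0.25. On lane plates 1 and 2 the Fcer1g ratios were 2.66 and 2.38, and without E8.5 plate 5 the pooled ratio was 3.63. Tyrobp on plate 5 was 85.9 CPM in Spi1-positive and 8.05 CPM in Pf4-positive cells.

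The surface receptors had nearly all of their reads in Spi1-positive cells, but some positive cells lay outside them. Csf1r (the receptor of macrophage colony-stimulating factor, ENSMUSG00000024621) was positive in 35 of 120 Spi1-positive cells, up to 640.07 CPM, and in 0 of 48 Pf4-positive and 0 globin-high cells. Its pooled level was 59.6 CPM, and the 3 reads in Pf4-positive cells gave a ratio of 759.2 with a counting interval of 259.7 to 3682. Ptprc (CD45, the leukocyte surface phosphatase, ENSMUSG00000026395, chromosome 1, 138062861 to 138175708, minus strand) was positive in 20 of 120 cells and had 0 reads in Pf4-positive cells. At the floor of 3 reads over that group it was at least 633.05-fold higher at 49.7 CPM in Spi1-positive cells. Cx3cr1 (the fractalkine receptor of macrophages and microglia, ENSMUSG00000052336, chromosome 9, 119901616 to 120069879, minus strand) was positive in 7 cells of the whole series, and all 7 were Spi1-positive.

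These receptors rested on few cells. The 5 cells with most reads held 95.3% of the reads of Cx3cr1, 87.3% of those of Ptprc and 58.9% of those of Csf1r. The adapter Tyrobp was also concentrated, at 64.5%, and the remaining members lay between 19.4% (Laptm5) and 30.6% (Spi1). The 7 Cx3cr1-positive cells were 5 on E7.5 lane plate 1, at 35.2, 96.9, 107.2, 202.1 and 686.4 CPM, and 2 on E8.5 plate 5, at 12.8 and 27.3 CPM. The cell at 686.4 CPM (lane plate 1, well D09) also had the highest Tyrobp (2267 CPM) and Ptprc (1098 CPM) of all cells and was positive for all 10 members. Without lane plate 1 the Cx3cr1 log2 ratio against Pf4-positive cells was 0.83 in place of 3.69. Ptprc was positive in cells with Spi1 on 2 plates only, 15 of 52 on E8.5 plate 5 and 5 of 37 on lane plate 1.

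Coro1a, Vav1 and Laptm5 act inside the cell. Coro1a (coronin 1A, an actin regulator of leukocytes, ENSMUSG00000030707, chromosome 7, 126699773 to 126707787, minus strand) was positive in 86 of 120 Spi1-positive cells and 16 of 48 Pf4-positive cells, with a log2 ratio of 3.48. Its pooled level was 277.7 to 284.3 CPM (Poisson interval) in the first and 24.3 CPM in the second. Its highest values were 2356 CPM with Spi1 and 321.4 CPM in Pf4-positive cells. Laptm5 (a lysosomal membrane protein of blood cells, ENSMUSG00000028581, chromosome 4, 130913125 to 130936141, plus strand) was the most widely seen, in 85% of the 120 cells, with a median of 213.35 CPM. It was also positive in 23 of 48 Pf4-positive cells, and the log2 ratio was 1.90. Within plates the Laptm5 ratio was 0.75 on lane plate 1, under the 2-fold limit, and 1.24 on E8.5 plate 5. It was 6.54 on lane plate 2 and 3.69 on E8.5 plate 6. Vav1 (a guanine nucleotide exchange factor of blood cell signalling, ENSMUSG00000034116, chromosome 17, 57279100 to 57328031, plus strand) was positive in 55 of 120 and 11 of 48 cells at 41.02 and 26.9 CPM, a log2 ratio of 0.59.

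Vav1 turned round within plates. It was 33.6 against 20.2 CPM on lane plate 1, while on E8.5 plate 5 it was 72.9 CPM in Spi1-positive and 108.9 CPM in Pf4-positive cells (log2 ratio −0.57). Without plate 5 the pooled Vav1 ratio was 2.05. The Pf4-positive cells of plate 5 included the highest Vav1 value of the series, 437.5 CPM. Coro1a was also lower in Spi1-positive cells on E8.5 plate 3, at 6.74 against 28.9 CPM, where 6 and 7 cells were compared. On E8.5 plate 3 Laptm5 (8.28 against 10.5 CPM) and Tyrobp (0 against 0.227 CPM) were lower too.

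Lyz2 (lysozyme M, an antibacterial enzyme secreted by macrophages and granulocytes, ENSMUSG00000069516, chromosome 10, 117277331 to 117282321, minus strand) was positive in 62 of 120 Spi1-positive and 13 of 48 Pf4-positive cells, at 48.02 and 28.8 CPM, with a log2 ratio of 0.72. The highest values of the groups overlapped, at 648.01 and 465.5 CPM. On E8.5 plate 6 it was 73.9 CPM in 6 Spi1-positive and 109.9 CPM in 8 Pf4-positive cells. At E7.5 alone the ratio was 4.12, and without plate 6 it was 1.47. Its close paralog Lyz1 can share reads with it, and the multimapping setting of the counting was not given in the sources used here.

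The levels were ranked per kilobase of annotated exon, counting every annotated transcript of a gene. In Spi1-positive cells of both stages Fcer1g was highest at 157.9 CPM per kilobase, followed by Tyrobp (106.99), Coro1a (100.97), Laptm5 (77.99), Spi1 (76.3), Lyz2 (36.5), Vav1 (11.1), Csf1r (10.3), Cx3cr1 (2.72) and Ptprc (2.71). The last value is lowered by the 18313 annotated exon bases of Ptprc. Coro1a alone ranged from 67.3 per kilobase in Spi1-positive cells of lane plate 1 to 201.5 on E8.5 plate 5, wider than the gaps to Tyrobp, Laptm5 and Spi1. Fcer1g was first through E8.5: at E7.5 alone Tyrobp stood at 107.2 and Fcer1g at 100.24 per kilobase. The order of these 5 genes is therefore not settled beyond the spread between plates. The levels of Tyrobp were pooled over fewer positive cells than those of its neighbours, 45 against 86 for Coro1a.

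The members were next counted together in each cell. After thinning to 100000 reads, the median Spi1-positive cell had a read of 4 of the other 9 members (quartiles 3 and 6), the median Pf4-positive cell of 1, and the median globin-high, Kdr-positive and Epcam-positive cell of 0. No thinning gave 5, 1 and 0 in the first 3 groups. At least 7 other members were seen in 23 Spi1-positive cells and in 0 cells of the other groups. On E8.5 plate 5 the groups were closer, with medians of 5 in 52 Spi1-positive and 4 in 17 Pf4-positive cells. Of the 90.8% of Spi1-positive cells that kept a Spi1 read, 87.2% had Laptm5, 74.3% Coro1a, 72.5% Fcer1g, 56.9% Lyz2, 53.2% Vav1, 42.2% Tyrobp, 32.1% Csf1r, 20.2% Ptprc and 6.42% Cx3cr1.

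The rarer members lay mostly in cells that had the commoner ones. At 10 CPM, 45 of the 120 cells had 0 to 3 of the other members, 55 had 4 to 6 and 20 had 7 to 9. Laptm5 was positive in 28 of the 45, 54 of the 55 and 20 of the 20. Tyrobp was positive in 0, 25 and 20 of them, Csf1r in 1, 15 and 19, Ptprc in 0, 4 and 16, and Cx3cr1 in 0, 1 and 6. These classes were made from the members, so the rise of each member across them follows in part from the choice. All 3 cells with all 9 others were on lane plate 1 (1 cell) and E8.5 plate 5 (2 cells), and the 20 cells with 7 to 9 were 6, 13 and 1 on lane plate 1, plate 5 and E8.5 plate 6.

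Genes that did not make the classes also differed between them. Gata1 was positive in 22 of the 45 cells with 0 to 3 other members, in 19 of 55 and in 0 of 20, where its highest value was 1.97 CPM. Klf1, the erythroid factor, was positive in 16, 3 and 0. Mpo, which encodes the myeloperoxidase of granules, ran the other way, with 7, 31 and 17 cells, as did the progenitor factor Myb with 18, 40 and 19. The leukocyte antigen Cd52 was positive in 0, 5 and 9 cells. Runx1, the factor of haemogenic endothelium and blood, was positive in 31, 54 and 20, and Kdr in 36, 54 and 19. Pf4 was positive in 11, 36 and 10. Spi1 had medians of 43.7, 155.4 and 414.6 CPM. Haemoglobin passed the globin-high limit in 13, 2 and 0 cells, so most of the globin-high cells lay in the class with the fewest members. Median depth was 745739, 576137 and 668508 reads. Whether depth, plate or globin-high cells set these differences was not tested.

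**Figure D4:**
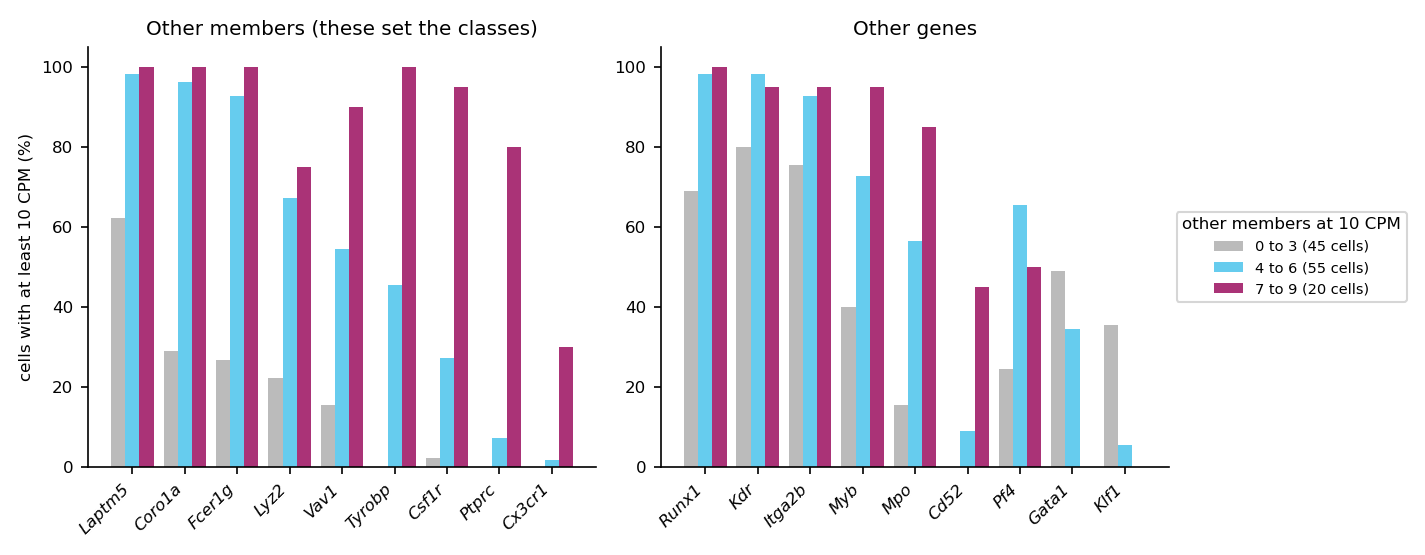
Share of Spi1-positive cells with 10 CPM or more (vertical axis, percent) of each other member (left) and of 9 other genes (right), in cells with 0 to 3 (grey, 45 cells), 4 to 6 (blue, 55) or 7 to 9 (purple, 20) other members. Tyrobp, Ptprc and Cx3cr1 were at 0 in the grey class, and Gata1 and Klf1 at 0 in the purple class. The members on the left also set the classes.

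At the low end, 13 Spi1-positive cells had none of the other 9 members at 10 CPM. They lay on 7 plates, with 4 on E8.5 plate 3 and 3 on lane plate 2 and 0 on E8.5 plate 5. Of these cells 9 were Kdr-positive and 4 were globin-high.

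Lists of genes with known roles in blood and in other tissues were then read in the same cells. Of 26 pan-leukocyte signalling genes, 19 reached 10 CPM in Spi1-positive cells, 9 of them at least 2-fold higher than in Pf4-positive cells and 0 lower. The highest were Plek at 430.15 CPM (360.8 in Pf4-positive cells), Arhgdib at 273.9 (162.95), Rac2 at 157.5 (30.6) and Ptpn6 at 153.2 (59.9). The list had a median log2 ratio of 1.16. Plek and Arhgdib were also abundant in Pf4-positive cells and were less than 2-fold apart. Over all genes compared, 6.25% were at least 2-fold higher than in Pf4-positive and 20.9% than in globin-high cells. The share of all genes that were lower was not kept for these comparisons, so counts of lower genes stand without it. In this list and those below, some of the genes called passed the 10 CPM limit through 1 group alone. The list counts are therefore descriptions only.

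Genes of mature myeloid cells were mostly low in pooled level. Of 16 macrophage genes, 3 reached 10 CPM: Fcgr3 at 63.1 CPM, Mrc1 at 45.3 and Cd33 at 12.5. Mrc1, which is also an endothelial gene, was 73.8 CPM in Pf4-positive and 63.5 CPM in Kdr-positive cells. The complement genes C1qb and C1qc were at 2.62 and 4.07 CPM, and Cd14, C1qa, Ms4a7 and Timd4 had 0 reads in Spi1-positive cells. A few single cells stood higher: C1qb was positive in 4 Spi1-positive cells, up to 241.8 CPM, and C1qc in 11, up to 183.6 CPM. Of 12 granulocyte genes, 3 reached 10 CPM and were at least 2-fold higher than in Pf4-positive cells: Mpo (59.2 against 13.1 CPM), Csf3r (43.3 against 10.7) and Prtn3 (28.1 against 2.64). S100a9, Ly6g, Camp and Ctsg had 0 reads.

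Other cell types were checked in the same way. None of 5 MHC class II genes and none of 5 decidua genes reached 10 CPM in Spi1-positive cells. In the decidua list Prl8a2 and Prl3c1 had 0 reads and the summed level was at most 2.81 CPM in any Spi1-positive cell. Of 12 lymphoid genes 1, Cd79b at 11.2 CPM, reached 10 CPM, and 6 had 0 reads. Of 7 mast cell and basophil genes, Kit (301.04 CPM) and Gata2 (43.7 CPM) did, both of which early blood progenitors also express, and Ms4a2 and Mcpt8 had 0 reads. Of 10 megakaryocyte genes 5 were at least 2-fold lower than in Pf4-positive cells, where Pf4 had set the group. Itga2b (331.7 against 425.4 CPM) and Itgb3 (241.6 against 313.5) were not. The megakaryocyte list had a median log2 ratio of −0.95, against 0.03 over all genes that passed the 10 CPM limit. All 11 endothelial genes were above 10 CPM, among them Kdr (315.4 CPM) and Esam (303.6 CPM). Of 10 erythroid genes 8 reached 10 CPM, and 5 were at least 2-fold higher than in Pf4-positive cells, from which globin-high cells had been taken out. The highest were Nfe2 (153.8 against 164.2 CPM), Tfrc (152.7 against 90.2) and Alas2 (54.1 against 21.7), and Alas2, the first enzyme of haem synthesis in red cells, was positive in 23 of the 120 cells. Against globin-high cells 9 of the 10 erythroid genes were at least 2-fold lower. That list had a median log2 ratio of −3.52 there, against 0.25 over all genes that passed the limit. Of 7 epiblast genes 2 reached 10 CPM, the methyltransferase gene Dnmt3b (471.2 against 162.85 CPM) and Pim2 (23.8 against 1.60 CPM). None of 8 visceral endoderm and none of 7 mesoderm genes did, and 2 of 7 extraembryonic ectoderm genes did. Of 18 blood transcription factors 14 were above it, led by Gfi1b (196.05 CPM), Fli1 (194.1), Runx1 (190.8) and Lyl1 (154.6).

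Genes most like the members were ranked by Pearson correlation over 1649 cells between log2(CPM + 1) of each of 22245 genes and the mean of the 10 members. They were Rac2 (0.78), Plek (0.74), Cyth4 (0.73), Ptpn7 (0.72), Pla2g4a (0.70), Hcls1 (0.69), Ptgs1 (0.69), Btk (0.69), Sla (0.68) and Was (0.67). In E8.5 cells alone 9 of these 10 were among the first 10, in E7.5 cells alone 7, and with Spearman correlation 3. Among the members, each set against the mean of the other 9, Spi1 and Fcer1g were highest (both 0.79) and Cx3cr1 lowest (0.33). Cells of a plate share its preparation, and the values describe these cells only.

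Between stages most members moved with the 2 plates rich in Spi1-positive cells, and Lyz2 did not. At E8.5 against E7.5, over all kept cells, 3 of the 10 members were at least 2-fold higher and 0 at least 2-fold lower. Of 9887 genes with 10 CPM or more at either stage, 7.02% were higher and 8.21% lower by that measure. Of the members, 5 passed this limit (Spi1, Fcer1g, Coro1a, Laptm5 and Lyz2), Fcer1g and Lyz2 through E8.5 alone, so nothing is read from the count. The 3 were Lyz2 (20.03 against 2.90 CPM), Fcer1g (22.01 against 7.29) and Coro1a (42.2 against 17.35). Spi1 was 18.9 against 13.6 CPM. Cx3cr1 went the other way, at 0.0821 against 1.44 CPM, below the 10 CPM limit. Without E8.5 plate 5, 1 member, Lyz2, was higher (log2 ratio 2.06) and 2 were lower, and the log2 ratios of Spi1, Tyrobp, Fcer1g, Csf1r, Ptprc, Coro1a, Vav1 and Laptm5 lay between −2.75 and −0.67. For Lyz2 the ratio was 2.43 with all plates and 1.20 without E8.5 plate 6. Without lane plate 1, 5 members were higher.

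Within Spi1-positive cells the members differed in how the stages compared. Fcer1g was 222.3 CPM in 66 cells at E8.5 and 87.6 CPM in 54 cells at E7.5, Coro1a was 467.1 and 169.9 CPM, and Lyz2 71.3 and 34.1 CPM. Vav1 was 60.4 and 29.4 CPM. The log2 ratio of Lyz2 was 1.04 there, against 2.43 over all cells, but that of Coro1a was 1.45, against 1.24. Cx3cr1 was lower at E8.5, at 0.976 against 18.99 CPM. The pooled level of Tyrobp was alike, at 71.1 and 71.5 CPM, although 27 cells were positive at E8.5 and 18 at E7.5. Its highest values were 625.3 CPM at E8.5 and 2267 CPM at E7.5. Ptprc was 53.1 and 47.7 CPM although 15 cells were positive at E8.5 and 5 at E7.5. With 1 sample a stage, and most of the cells on 2 plates, stage and plate cannot be told apart.

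The members differed in how far they reached outside Spi1-positive cells. Spi1-positive cells held 95.3% of the reads of Tyrobp, 95.3% of those of Csf1r, 98.2% of those of Ptprc and 98.3% of those of Cx3cr1. They held 81.5% of the reads of Fcer1g and 79.7% of those of Coro1a, but 70.6% of those of Laptm5, 59.3% of those of Vav1 and 39.1% of those of Lyz2. Of the Coro1a-positive cells 34.7% were Spi1-positive, of the Laptm5-positive cells 36.3%, of the Vav1-positive cells 52.4% and of the Lyz2-positive cells 44.9%. This share of positive cells was 64.3% for Fcer1g, 73.8% for Tyrobp, 79.5% for Csf1r, 83.3% for Ptprc and 100% for Cx3cr1. In the Epcam-positive background a read was present, with and without thinning, in 16.4% and 21.5% of cells for Coro1a, 7.77% and 10.02% for Laptm5, 2.45% and 3.07% for Vav1, 1.64% and 2.86% for Csf1r, and at most 0.409% and 2.45% for Tyrobp, Fcer1g, Cx3cr1, Ptprc and Lyz2. Thinned shares in Spi1-positive cells were 72.5%, 85%, 50%, 30% and 5.83 to 70% for the same genes. The groupings that follow were chosen after the values were seen.

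At E7.5 Coro1a and Laptm5 were found in Epcam-positive cells with different markers. Among Epcam-positive cells at E7.5, Coro1a was positive in 78 (19.4%) and Laptm5 in 32 (7.94%), and 0 cells were positive for both. Of the 68.98% with Pou5f1 (OCT4, of the epiblast) and without Elf5, 70 cells were Coro1a-positive (25.2%, exact interval 20.2 to 30.7%) and 0 were Laptm5-positive, which allows up to 1.08%. Of the 82 cells with Elf5 (a factor of the extraembryonic ectoderm) and without Pou5f1, 5 were Coro1a-positive (6.10%, 2.01 to 13.7%) and 32 were Laptm5-positive (39.02%, 28.4 to 50.4%). Median depths of these cells were 681258 and 573680 reads.

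The same split was seen in both numbered embryos that had both kinds of cell. In embryo 4, Laptm5 was positive in 17 of 45 cells with Elf5 and 0 of 14 with Pou5f1, and Coro1a in 3 and 5 of them. In embryo 5, Laptm5 was positive in 13 of 29 and 0 of 15, and Coro1a in 2 and 6. Embryos 1 and 2 had no cells with Elf5 alone, and of their 48 and 49 cells with Pou5f1 alone 0 and 0 had Laptm5 and 12 and 13 had Coro1a. Levels were low beside those of Spi1-positive cells, with a median of 30.7 CPM in the 78 Coro1a-positive cells and 42.2 CPM in the 30 Laptm5-positive cells of embryos 4 and 5. An exon of Coro1a overlaps one of Bola2 on the other strand, and Bola2 was at a median of 87.6 CPM in the Coro1a-positive and 85.4 CPM in the remaining cells.

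Lyz2 in cells without Spi1 lay mostly in Kdr-positive cells, chiefly of 1 plate. It was positive in 53 Kdr-positive, 13 Pf4-positive, 4 globin-high and 6 other cells. On E8.5 plate 6 it was positive in 44 of 68 Kdr-positive cells, up to 838.4 CPM, against 2 of 70 on plate 3 and 3 of 80 on plate 4. These 68 cells held 45.2% of all Lyz2 reads of the series. In the 44 cells Spi1, which the grouping holds under 10 CPM, was at most 6.01 CPM, and Csf1r, Cx3cr1 and Ptprc were positive in 0. The remaining members were seen in some of the 44: Laptm5 in 23, Fcer1g in 10, Coro1a in 7, Vav1 in 4 and Tyrobp in 4. In the 24 Lyz2-negative Kdr-positive cells of that plate the same genes were positive in 9, 2, 3, 0 and 1. Mpo was positive in 35 of the 44 and in 7 of the 24 Lyz2-negative Kdr-positive cells of that plate, and Runx1 in 29 and 8. Itga2b, which encodes CD41, was positive in 41 and 19, at medians of 167.7 and 104.45 CPM. Of the endothelial genes, Cdh5 was positive in 41 and 20 and Emcn in 11 and 13, and the endothelial list summed to medians of 3256 and 3593 CPM. Lyz1 was at 0 in all 68 cells. Laptm5 was positive in 32 of these 68 cells and in 27 of 70 on plate 3.

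**Figure D5:**
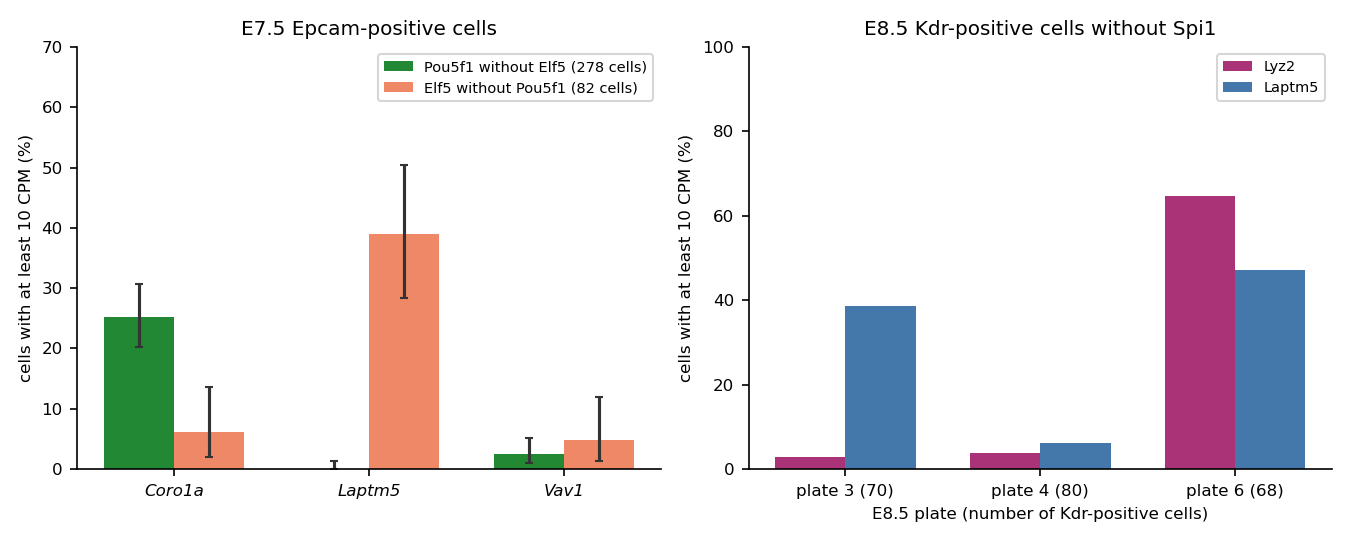
Share of cells with 10 CPM or more (vertical axes, percent). Left, Coro1a, Laptm5 and Vav1 in E7.5 Epcam-positive cells with Pou5f1 but not Elf5 (green) or Elf5 but not Pou5f1 (orange, 82 cells), with exact 95% binomial intervals. Right, Lyz2 (purple) and Laptm5 (blue) in Kdr-positive cells without Spi1 on the 3 E8.5 plates with at least 20 such cells. Coro1a was higher with Pou5f1 (25.2 against 6.10%), Laptm5 with Elf5 (39.02 against 0%), and Lyz2 was higher on plate 6 than on plates 3 and 4.

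Csf1r outside Spi1-positive cells was rare, with 4 Kdr-positive and 5 Epcam-positive cells. At E8.5 the 3 Epcam-positive cells, at up to 99.98 CPM, all had Ttr, a gene of the visceral and yolk sac endoderm, at a median of 6092 CPM, and had no Spi1, Tyrobp or Ptprc read. Ttr was also positive in 26 of the 81 Epcam-positive cells of E8.5 without Csf1r, up to 10265 CPM, with a median of 0 over the 81. An exon of Csf1r overlaps one of Hmgxb3, which was at medians of 20.6 CPM in these 3 and 10.1 CPM in the other 81 Epcam-positive cells of that stage. Whether overlapping reads added to Csf1r was not tested.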

How the data were processed

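The authors aligned Smart-seq2 reads to GRCm38 with HISAT2 2.1.0 and counted them per gene with featureCounts, per the labels, and deposited raw counts for 55487 Ensembl genes and 1824 wells. The strand and multimapping settings are not given in the sources used here, so overlapping genes and paralogs are uncertain. Each column name matched 1 sample title, and 0 columns were left without a sample. Symbols were found for 55141 identifiers, and positions were taken from GENCODE M21 (GRCm38).

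Cells with at least 100000 reads were kept (100941 to 6162793 reads each). CPM was computed on all gene reads. Group levels were reads summed over cells, and log2 ratios had a pseudocount of 1 CPM. A call was a ratio of at least 2-fold among genes with at least 10 CPM in either group. Cells were thinned to 100000 reads without replacement for counts of members together. Intervals are exact (Clopper-Pearson or Poisson, 95%), a count of 0 was given the limit of 3 counts, and the ratio interval is the conditional exact one. No doublet caller was run, and as an alternative the deepest 2% of each plate was dropped. The ratio and thinning steps were tested on simulated counts. Python 3.11.15, numpy 2.4.6, scipy 1.17.1, pandas 2.3.3, R 4.3.3, edgeR 4.0.16 and DESeq2 1.42.0 (the last 2 for scaling factors only) were used.

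No groups were tested against each other, because cells are not replicates and each stage is 1 sample. Dixon's gap ratio was used over plates only to single out plates. Genes named outside the 10 members were up to 4 of each list with the highest level in Spi1-positive cells, and the 10 genes most like the members. Genes of those lists at 0 or low, and the genes set against the number of members, were named after their values were seen. The members and lists were chosen with earlier results of these data known.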

Additional observations from a re-analysis of the deposited data

Results flagged for a closer look

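A plate was singled out where its pooled level lay far from those of the other plates of its kind, by Dixon's gap ratio at 95%, over the 8 E8.5 plates and over the 4 plates that carry an embryo number. Chance singles out about 1 in 20 such sets where the plates are alike and their values normal, which was not shown here. E8.5 plate 5 stood apart for 9 of the 10 members. These members lay largely in the same cells of that plate, so the 9 are not separate results. Its values, each with the next highest plate, were 206.9 CPM for Spi1 (4.74), 63.6 for Tyrobp (1.38), 238.3 for Fcer1g (11.5), 62.1 for Csf1r (0.945), 0.862 for Cx3cr1 (0.0285), 46.9 for Ptprc (0.470), 426.3 for Coro1a (23.02), 73.3 for Vav1 (6.50) and 347.6 for Laptm5 (48.7). Lyz2 was not singled out there, since plate 6 was higher. Among the named embryos, Lyz2 in embryo 4 stood apart at 0.117 CPM, which was 7 reads, next to 0.0143 CPM in embryo 1. The labels give no gate per plate, and how plate 5 was sorted cannot be told apart from its content.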

How the results depend on the processing

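The Spi1-positive share at E7.5 was 7.95% when 1 read was enough and 2.62% at 100 CPM, and at E8.5 it was 5.05% at 100 CPM. Leaving out 1 plate at a time gave 1.97 to 6.26% at E7.5 and 2.27 to 10.9% at E8.5. The number of members at least 2-fold higher than in Pf4-positive cells stayed between 5 (E8.5 plate 5 alone, an alternative added after seeing the data) and 9 (E7.5 cells alone), and against globin-high cells it was 8 or 9 under every alternative run. Without the Spi1-positive cells that were also Pf4-positive or globin-high, added after seeing the data, the counts were 7 and 9. The number higher at E8.5 was 6 when plates were averaged, 1 with a pseudocount of 10 CPM, and 1 to 5 as plates were left out. The number lower was 1 without a filter on low values and 0 to 2 as plates were left out. With Spi1 at 100 CPM the median number of other members was 6 in Spi1-positive and 3 in Pf4-positive cells. The cause of these shifts was not tested beyond the plates and limits named.

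Of the member log2 ratios between stages of size 1 or more with all plates, 3 turned round when a plate was left out. Without E8.5 plate 5, Fcer1g was −1.64 and Coro1a −1.37 (1.47 and 1.24 with all plates), and without E7.5 lane plate 1, Cx3cr1 was 0.10 (−1.18 with all plates). Over plates left out the 3 ranged from −1.64 to 3.5997, −1.37 to 2.66 and −1.38 to 0.10. Smaller stage ratios changed sign too. Those of Spi1, Tyrobp, Csf1r, Ptprc, Vav1 and Laptm5 were above 0 with all plates and below 0 without E8.5 plate 5. Within single plates some ratios against Pf4-positive cells were below 0, with Vav1 at −0.57 on E8.5 plate 5, Lyz2 at −0.57 on plate 6, and Coro1a at −1.95, Laptm5 at −0.30 and Tyrobp at −0.30 on plate 3. Of the values outside the main counts and shares under an alternative, 87.87% moved by less than a set limit and 11.81% by more. The limit was the spread over plates for ratios against Pf4-positive cells and between stages. For ratios against globin-high cells it came from the counting interval, and for the genes most like the members from a fold rule. Many of these alternatives left out a plate with few or no Spi1-positive cells. No paired analysis was possible because the labels give no animal or replicate number shared between stages and no comparison was tested.

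Limits: each stage is 1 sample, E8.5 plate 5 and E7.5 lane plate 1 held 52 and 37 of the 120 Spi1-positive cells, and genotype is not given per cell. Reads without molecular identifiers are not independent molecules, so counting intervals are too narrow. At this depth a gene at 0 in a cell was not detectable rather than absent.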
